A study of Homo sapiens with 8 samples.

Results

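Glycolysis and hypoxia response genes were followed in H3122 cells that had evolved resistance to inhibitors of the ALK kinase. The members are 39 genes named by symbol, by a rule that uses no measured value but was written with earlier results of these data known, and 39 of 39 have a value among the 43869 genes of the deposited table. H3122 is a human lung cancer line carrying the EML4-ALK fusion. The groups are treatment-naive cells, grown as the parental line, and the resistant lines erCriz0, erAlec0 and erLor0 derived from it. The resistant lines were selected by stepwise dose escalation and kept in 0.5 μM crizotinib, 2 μM alectinib and 2 μM lorlatinib, in that order. All 4 lines derive from the same EML4-ALK line and share the medium, and the labels give DMSO as the vehicle. The state of the fusion is not the same in all of them, since in-situ hybridization in the study found it amplified in part of the erCriz and erAlec cells and its signal more often undetected in erLor cells. RNA was collected after a drug holiday without inhibitor, so the RNA values describe cells outside acute kinase inhibition. Each line is a single evolved population with 1 RNA-seq library and 1 library of chromatin immunoprecipitation for H3K27ac, a histone acetylation found at active promoters and enhancers. The study's methods give a drug holiday for RNA and mention none for chromatin immunoprecipitation, so the drug state may differ between the assays. No replicates back a difference between lines, so no test was made. The other 4 samples of the series, namely erCriz1, erLor1, cells under short lorlatinib exposure and pooled input DNA, were not analysed here.

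Cells respond to low oxygen through hypoxia-inducible factors, whose alpha subunits HIF1A and EPAS1 (also called HIF-2 alpha) are marked for destruction by prolyl hydroxylases when oxygen is present. Stabilised subunits pair with ARNT and bind short DNA motifs at genes for glucose uptake, glycolysis, lactate export, angiogenesis and mitophagy. Control of the alpha subunits is mainly at the level of the protein, which RNA values do not show, and the same glycolytic genes are also driven by growth factor signalling in tumour cells that ferment glucose to lactate.

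Values are on the rlog scale, a log2 scale of normalized reads that draws features with few reads toward their mean over the libraries. A change is the value in a resistant line less the naive value, and it was counted as a rise or a fall at 1 or -1, the limit in the study's methods. The same naive library enters all 3 changes, so similar changes in different lines are not independent of each other. The depth of the libraries is unknown, because rlog values keep no read totals. Of 9 markers of lung epithelium, 7 exceeded the limit of expression, which is the log2 of 25 reads (4.64) in at least 1 library, and the log2 of their summed level was 16.0 to 16.5. NAPSA and SFTPB, products of alveolar cells, stayed below that limit. Leukocyte markers reached it for 0 of 5, with PTPRC listed at 0 and a summed level of 4.66 to 4.83. COL1A1 was the single fibroblast marker of 4 with a value to exceed it, with a summed level of 9.51 in naive cells and 9.73 to 10.1 in the resistant lines. The 4 endothelial markers summed to 6.84, 6.01, 6.93 and 7.50 in naive, erCriz0, erAlec0 and erLor0, with 2 of 4 expressed and PECAM1 and VWF between -0.13 and 0.19. Within this list CDH5 rose by 1.68 in erAlec0 and 1.54 in erLor0, and KDR fell by 1.15 in erCriz0. The part of these shifts in the member values was not tested. In bulk libraries, fewer expressing cells and less RNA per cell cannot be told apart.

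At the RNA level the one member past the limit was SLC2A3, the high-affinity glucose transporter GLUT3, which rose in erAlec0. In erCriz0, 0 of 39 members rose and 0 fell, where 2.65% of the 12701 expressed genes rose and 1.65% fell. In erAlec0, 1 member rose (2.56%) and 0 fell, against 2.46% and 2.07% of expressed genes, so the share that rose was near that of expressed genes. In erLor0, 0 members rose and 0 fell, against 1.1% and 0.74% of expressed genes. At a lower bar, 10 members (25.6%) differed from naive by 0.5 or more in erCriz0, up or down, against 21.8% of expressed genes. The same count was 7 (17.9%) against 21.0% in erAlec0 and 1 (2.56%) against 11.3% in erLor0. Of the 39 members, 36 reach the limit of expression in a library, and 35 do so by their mean over the libraries. CA9, CA12 and SLC16A1 do not reach it, and ANKRD37 reached it in 1 library without doing so by its mean. Values above naive were seen for 12 of the 39 members in erCriz0 and for 22 and 27 in erAlec0 and erLor0. Of the expressed genes, 47.9%, 50.3% and 49.4% were above naive in these lines. In the order erCriz0, erAlec0, erLor0, the median member change was -0.13, 0.05 and 0.12, beside -0.02, 0.00 and -0.00 over expressed genes. The quartiles of the members lay at -0.24 and 0.14, at -0.17 and 0.34, and at -0.03 and 0.23 in the same order, all inside the limit. Exons of 10 members overlap another gene on the same strand and those of 18 overlap an antisense gene, and since the strand setting of the counting is not given, their reads may include those of the other gene.

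**Figure D1:**
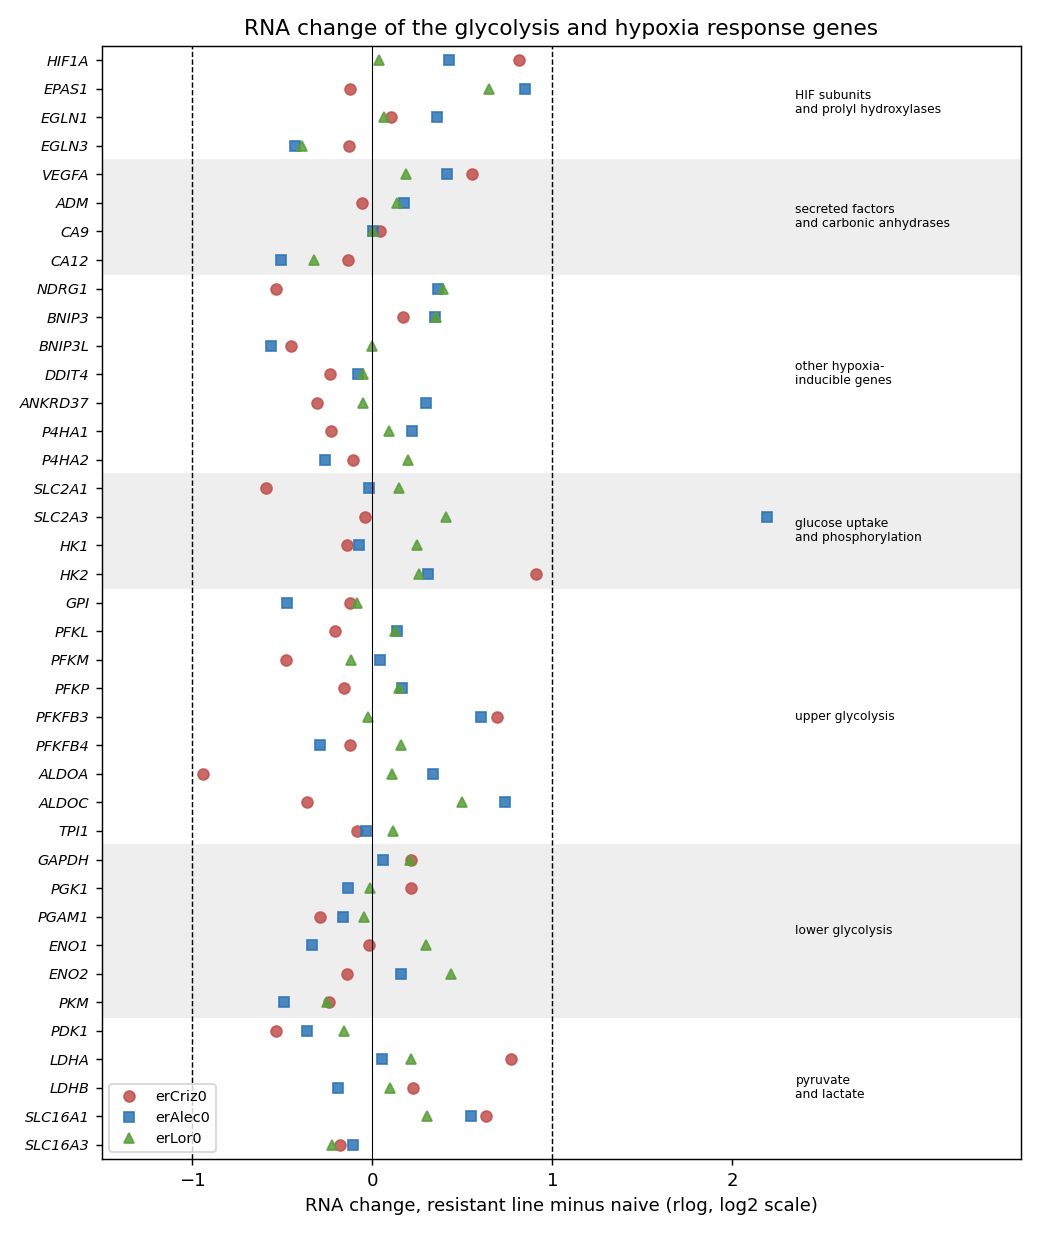
RNA change from naive cells (rlog, log2 scale, horizontal axis) of the 39 members, grouped by role, with 1 point per resistant line and dashed lines at the limits of -1 and 1. SLC2A3 in erAlec0, at 2.19, lies past a limit, and ALDOA in erCriz0, at -0.94, and HK2 in erCriz0, at 0.91, lie nearest to one among the other points.

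The oxygen-sensing members were expressed in all 4 lines, and the alpha subunits had their highest values in different lines. HIF1A, the broadly expressed alpha subunit, had rlog values of 11.95 in naive cells, 12.76 in erCriz0, 12.37 in erAlec0 and 11.98 in erLor0. Its changes of 0.82, 0.43 and 0.04 were below the limit, with erCriz0 highest and erLor0 next to naive. EPAS1, the other alpha subunit, stood at 11.46, 11.34, 12.31 and 12.11 in the same order of lines. Here erAlec0 and erLor0 were high, with changes of 0.85 and 0.65, and erCriz0 was next to naive at -0.12. EGLN1, the main prolyl hydroxylase acting on the alpha subunits, was nearly level at 5.81, 5.92, 6.17 and 5.88. EGLN3, a hydroxylase that is itself a target of the hypoxia-inducible factors, measured 8.02, 7.89, 7.59 and 7.63, lowest in erAlec0 and erLor0 with changes of -0.43 and -0.39. Per kb of exon, the level of EPAS1 minus that of HIF1A was -0.98 on the log2 scale in naive cells, then -1.92, -0.56 and -0.37 in the resistant lines. The difference of their changes was thus -0.94 for erCriz0, against 0.42 and 0.61 for the other lines.

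VEGFA, the principal angiogenic growth factor, was above naive in all 3 resistant lines without reaching the limit, at 12.15 in naive cells and 12.70, 12.56 and 12.33 in erCriz0, erAlec0 and erLor0. ADM, the vasodilator peptide adrenomedullin, was low and nearly level at 5.42, 5.37, 5.60 and 5.56. The carbonic anhydrases, enzymes that regulate pH outside the cell, were barely detected. CA9, a widely used hypoxia marker, had rlog values between -1.75 and -1.70, where rlog differences carry almost no information. CA12 had 3.85, 3.72, 3.34 and 3.53, all below the limit of expression.

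Among the other hypoxia-inducible genes, changes ranged from -0.53 to 0.17 in erCriz0, and from -0.56 to 0.36 and -0.05 to 0.39 in erAlec0 and erLor0, and 0 of 7 passed the limit in any line. In erCriz0, 1 of the 7 was above naive, against 4 in erAlec0 and 5 in erLor0. The shares of expressed genes above naive were 47.9%, 50.3% and 49.4%. BNIP3, a mitophagy receptor, had 7.43, 7.60, 7.78 and 7.78 in naive, erCriz0, erAlec0 and erLor0. Its relative BNIP3L had 9.52, 9.07, 8.95 and 9.52, so erLor0 equalled naive while erCriz0 and erAlec0 were lower by less than the limit. GENCODE lists 44 pseudogenes named after BNIP3, which makes its read assignment uncertain. P4HA1 and P4HA2 encode catalytic subunits of collagen prolyl 4-hydroxylase, which stabilises the collagen triple helix. P4HA1 measured 9.13, 8.90, 9.34 and 9.22, and P4HA2 measured 8.83, 8.73, 8.57 and 9.03, so that erAlec0 had the highest value of P4HA1 and the lowest of P4HA2. The remaining members of this group, the stress-responsive NDRG1, the mTOR inhibitor DDIT4 and the ankyrin repeat gene ANKRD37, had changes between -0.53 and 0.39.

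Glucose uptake held the one call. SLC2A3 (ENSG00000059804.16, chr12:7919230-7936187 on hg38, minus strand) had rlog values of 4.01 in naive cells, 3.97 in erCriz0, 6.20 in erAlec0 and 4.42 in erLor0. The erAlec0 library was alone above the limit of expression, and the mean of 4.65 over the libraries passes it through that value. The rise of 2.19 ranks 17 among the 12701 expressed genes of erAlec0. It was 2.12 to 2.22 after centring, quantile normalization or subtraction of the median of expressed genes within 5 Mb. Neighbouring genes did not show it, with FOXJ2 at 0.16 and NECAP1 at 0.17 in erAlec0. GENCODE lists 3 pseudogenes named after SLC2A3, and SLC2A14, its close paralog, was listed at 0 in all 4 libraries, so the assignment of reads between them is uncertain. SLC2A1 (GLUT1), the basal glucose transporter, did not follow this pattern. It measured 11.37, 10.78, 11.35 and 11.52, lowest in erCriz0 with a change of -0.59. Per kb of exon, the level of SLC2A3 minus that of SLC2A1 was -7.49 on the log2 scale in naive cells and -5.28 in erAlec0, so that SLC2A1 stayed the more abundant transcript in each line. The exon length of SLC2A3 came from a later, longer gene model than the one in the table, so this gap is approximate.

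Hexokinases trap glucose in the cell by phosphorylation. HK2, the inducible isoform, had 10.51 in naive cells, 11.43 in erCriz0, and 10.83 and 10.77 in erAlec0 and erLor0. Its value in erCriz0 stood apart from the other 3, with a change of 0.91 that is just short of the limit. HK1, the constitutive isoform, was nearly level at 10.29, 10.15, 10.21 and 10.53. The per-kb level of HK2 minus that of HK1 accordingly went from 0.44 in naive cells to 1.5 in erCriz0, and was 0.83 and 0.46 in erAlec0 and erLor0.

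**Figure D2:**
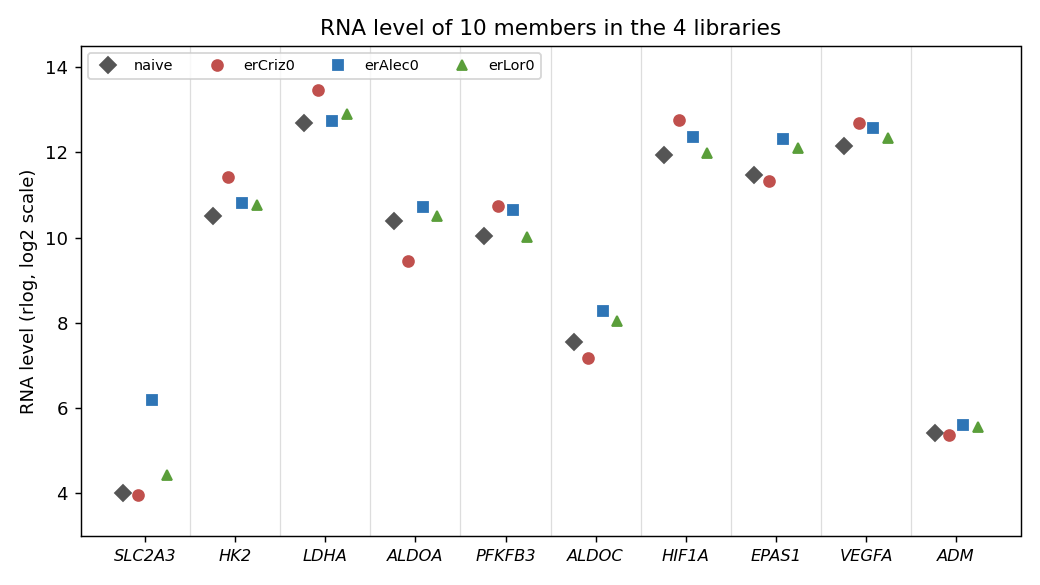
RNA level (rlog, log2 scale, vertical axis) of 10 members in the naive, erCriz0, erAlec0 and erLor0 libraries, 1 library per point, with levels comparable between lines and not between genes. SLC2A3 is high in erAlec0, HK2, LDHA and HIF1A are highest in erCriz0, ALDOA is lowest in erCriz0, and EPAS1 and ALDOC are highest in erAlec0.

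In upper glycolysis, the steps from glucose 6-phosphate to triose phosphates, ALDOA and ALDOC held the widest differences between lines. Of 9 members, 1 was above naive in erCriz0 and 6 in each other line, beside 47.9%, 50.3% and 49.4% of expressed genes. ALDOA, the aldolase of muscle and most tumours, had 10.39, 9.45, 10.73 and 10.50 in naive, erCriz0, erAlec0 and erLor0, and the erCriz0 library was the low one. Its change of -0.94 in erCriz0 missed the limit on the deposited values, just passed it after quantile normalization and was -0.65 after subtraction of the RNA median within 5 Mb. Another annotated gene shares exons with it on the same strand (ENSG00000285043), so its reads are uncertain. ALDOC, the brain-type aldolase, had 7.55, 7.19, 8.29 and 8.05, which again put erCriz0 lowest. PFKFB3, which makes fructose 2,6-bisphosphate, the activator of phosphofructokinase, was high in erCriz0 and erAlec0, with 10.05, 10.74, 10.65 and 10.02. The related PFKFB4 ran at 5.71, 5.59, 5.42 and 5.87, and its exons overlap UCN2 on the same strand. The 3 phosphofructokinase genes, which encode the committed step, were close to naive. PFKL had 9.75, 9.54, 9.88 and 9.87. PFKP had 9.72, 9.56, 9.88 and 9.87. PFKM had 7.25, 6.77, 7.29 and 7.13, with erCriz0 lowest for each of these genes. GPI and TPI1, the isomerases of this segment, had changes between -0.47 and 0.12.

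Lower glycolysis, from glyceraldehyde 3-phosphate to pyruvate, held the most abundant transcript and no change past the limit. Per kb of exon GAPDH, the dehydrogenase of this segment, stood at 15.0 on the log2 scale in naive cells, followed among the members by DDIT4 at 11.2 and PKM, the pyruvate kinase, at 10.8. The order of DDIT4 and PKM rests on exon length, as their naive rlog values were 12.25 and 13.88. With 65 annotated pseudogenes for GAPDH and 13 for PGAM1, the phosphoglycerate mutase, their reads are uncertain. ENO1, the ubiquitous enolase, had 12.94, 12.92, 12.61 and 13.24 in naive, erCriz0, erAlec0 and erLor0. ENO2, the neuronal enolase, had 7.25, 7.11, 7.41 and 7.69, so both enolases were highest in erLor0. PKM differed from naive by -0.24, -0.49 and -0.25, below it in each line and short of the limit. Over the 6 genes of this segment, PGK1 (phosphoglycerate kinase) included, changes lay between -0.49 and 0.44.

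At the end of the pathway LDHA, the lactate dehydrogenase subunit that favours lactate formation, had 12.70 in naive cells, 13.47 in erCriz0, 12.75 in erAlec0 and 12.91 in erLor0. As for HK2, erCriz0 was the high library, with a change of 0.77. LDHB, the subunit of oxidative tissues, stood at 8.91, 9.14, 8.72 and 9.01. Its per-kb level minus that of LDHA was -2.77 in naive cells and -3.31 in erCriz0. PDK1, the kinase that shuts off pyruvate dehydrogenase, differed from naive by -0.54, -0.36 and -0.16, below it throughout. SLC16A3 (MCT4), the lactate exporter of glycolytic cells, was even at 11.51, 11.33, 11.40 and 11.28. SLC16A1 (MCT1), the transporter that also imports lactate, was below the limit of expression in each library at 3.63, 4.26, 4.18 and 3.94.

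Related genes outside the members were read from lists by role. Of 9 HIF pathway regulators, among them ARNT and VHL, 0 rose and 0 fell in any line. Of 24 further hypoxia-inducible genes with a value, LOX, a collagen-crosslinking enzyme, rose in erCriz0, from 6.30 to 8.67. WSB1, a ubiquitin ligase component, passed the limit in erAlec0 alone. Its changes of 0.58, 1.35 and 0.78 put it above naive in erCriz0, erAlec0 and erLor0. IGFBP3, an IGF-binding protein, had 10.03, 8.93, 7.67 and 7.31 and fell in each line, with changes of -1.10, -2.36 and -2.72. The median changes of this list were 0.03, -0.07 and 0.13. Of 21 other glycolytic isoforms and pyruvate genes with a value, 1 rose, SLC16A7 (MCT2) in erCriz0, with 7.63, 9.49, 7.01 and 6.71. HK3 and CXCR4 have no row in the table.

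H3K27ac at the members' own start sites was above naive nearly throughout, as it was at expressed genes in general. A start-site peak, meaning a peak across the canonical transcript start, was present for 32 of the 39 members. CA9, CA12, SLC2A3, PFKM, ALDOC, SLC16A1 and SLC16A3 had none. In erCriz0, 3 of the 32 rose and 0 fell, which is 9.38% up beside 3.63% up and 0.198% down of the start-site peaks of 10599 expressed genes. In erAlec0, 4 rose and 0 fell, 12.5% up beside 6.32% up and 0.934% down. In erLor0, 2 rose and 0 fell, 6.25% up beside 6.94% up and 0.406% down. With so few members, these shares rest on 2 to 4 peaks. Values above naive were found for 29, 27 and 28 of the 32. These stand beside 86.5%, 74.8% and 87.7% of expressed genes. The median start-site change was 0.54, 0.27 and 0.49 for the members and 0.34, 0.26 and 0.41 for expressed genes.

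ADM was the member whose start-site peak rose in all 3 resistant lines, and it is described in full after its values were seen. Its peak (chr11:10302392-10311314), also paired with AMPD3 and SBF2, had rlog values of 8.85 in naive cells, 10.19 in erCriz0, 10.18 in erAlec0 and 9.93 in erLor0. The resistant lines were close to one another and 1.33, 1.32 and 1.08 above naive, while other peaks within 5 Mb had median changes of 0.12, 0.31 and 0.14. The RNA of ADM differed from naive by -0.06, 0.18 and 0.14, far less than its acetylation. Another ADM peak, 12.8 kb after the start and also paired with AMPD3, rose by 1.99 in erAlec0 and 1.41 in erLor0 from a naive value of 3.40.

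The other start-site peaks past the limit passed it in 1 line each. In erCriz0, BNIP3L (6.53 in naive cells, 7.71 in erCriz0, 7.03 in erAlec0 and 7.10 in erLor0) rose by 1.18. ENO2 (5.69, 6.79, 5.84 and 6.25) rose there by 1.10. For both, the other resistant lines also lay above naive. In erAlec0, P4HA1 (7.68, 8.50, 8.90 and 8.56) rose by 1.22. BNIP3 (6.01, 6.33, 7.09 and 6.88) rose in the same line by 1.08 and PFKFB3 (7.65, 8.11, 8.66 and 8.13) by 1.00. In erLor0, P4HA2 (7.87, 8.23, 8.36 and 8.96) rose by 1.09. For each of these genes the start-site peak was above naive in the other lines too. HIF1A and EGLN1 had start-site changes of 0.62 to 0.74 and of 0.58 to 0.75 over the resistant lines, and EPAS1 had 0.10, 0.12 and 0.63.

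At its start site SLC2A1 was below naive in all 3 lines, and HK2 was below it in erAlec0 and erLor0. The SLC2A1 peak, 41346 bases long, had 13.12 in naive cells, 12.97 in erCriz0, 12.31 in erAlec0 and 12.36 in erLor0. Its changes of -0.15, -0.81 and -0.76 did not reach the limit. A neighbouring SLC2A1 peak, 8.59 kb before the start, did fall, with changes of -1.27 in erAlec0 and -1.05 in erLor0. At HK2 the start-site peak stood at 9.73, 9.73, 9.14 and 9.32, so it equalled naive in erCriz0, where the RNA was highest. LDHA had 9.29, 10.00, 9.53 and 9.52 at its start, and ALDOA had 10.65, 11.26, 10.85 and 11.16. Both were highest in erCriz0, although their RNA differed from naive in opposite directions there. Across the 32 members the Spearman coefficient between start-site and RNA changes was -0.31 in erCriz0, with 0.24 and 0.08 in erAlec0 and erLor0, beside 0.26, 0.04 and 0.13 over 10599 expressed genes. These points share the 4 libraries, and the coefficients are a description.

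**Figure D3:**
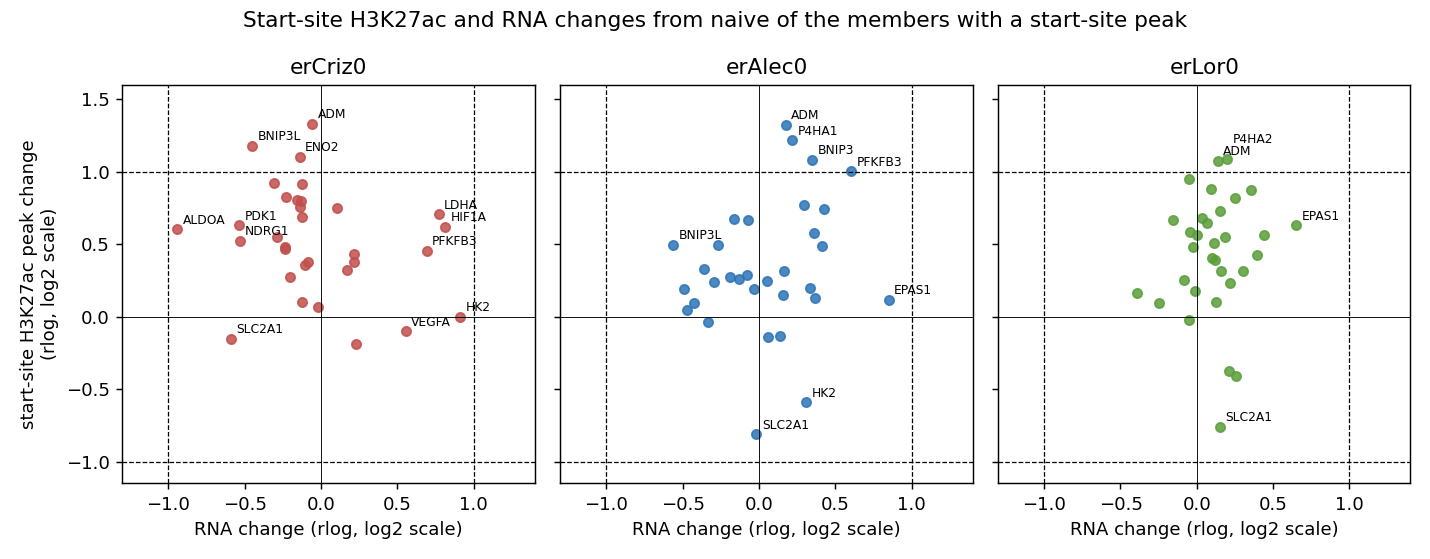
Change of the start-site H3K27ac peak (vertical axis) against RNA change (horizontal axis), both as rlog difference from naive, for the 32 members with a start-site peak, 1 panel per resistant line and dashed lines at -1 and 1. Most points lie above 0 on the vertical axis, ADM lies above 1 in all 3 panels, and SLC2A1 is the lowest point in erAlec0 and erLor0.

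Promoter sequences were taken from a RefSeq table (GRCh38.p14) that matched 34 of the 39 members, each with 250 bases before and 50 after the start in that table. For some members, such as HK1 and PFKFB3, this start is far from the canonical start used for the start-site peaks. The motif shares thus do not always describe the promoter at that peak. VEGFA, NDRG1, BNIP3L, SLC2A3 and SLC16A1 have no entry. The core of the hypoxia response element, ACGTG on either strand, occurred in 14 of the 34 (41.2%), in 21.6% of all 27305 windows and in 27.2% of the windows of 9858 expressed genes. The other core form, GCGTG, occurred in 17 (50%), against 36.3% of all windows and 51.2% of those of expressed genes. One or both were found in 25 members (73.5%), against 48.4% and 63.8%. ACGTG also lies inside the E-box CACGTG, read by MYC and other factors, which was present in 5 members (14.7%), in 7.43% of all windows and in 10.2% of those of expressed genes. A match of letters describes the window and does not show binding. Bases upstream of the outermost annotated start are printed for 3 members, 5′ to 3′ in the direction of the gene, with ACGTG and GCGTG in capitals (on the reverse strand they read CACGT and CACGC). ADM (chr11:10304823-10305072, plus strand) is shown because its peak rose in each resistant line, BNIP3 (chr10:131981968-131982173, minus strand) because its peak rose in erAlec0, and LDHA (chr11:18394313-18394559, plus strand) because it holds the most ACGTG matches.
ADM: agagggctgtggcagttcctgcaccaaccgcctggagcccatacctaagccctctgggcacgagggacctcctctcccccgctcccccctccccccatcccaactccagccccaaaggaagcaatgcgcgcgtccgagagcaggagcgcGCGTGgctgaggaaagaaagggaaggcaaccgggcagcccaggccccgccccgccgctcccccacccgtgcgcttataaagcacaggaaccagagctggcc
BNIP3: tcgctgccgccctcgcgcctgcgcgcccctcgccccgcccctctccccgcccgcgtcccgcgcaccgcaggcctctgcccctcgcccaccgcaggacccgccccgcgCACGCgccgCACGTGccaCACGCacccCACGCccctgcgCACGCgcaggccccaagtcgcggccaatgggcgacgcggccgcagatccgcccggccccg
LDHA: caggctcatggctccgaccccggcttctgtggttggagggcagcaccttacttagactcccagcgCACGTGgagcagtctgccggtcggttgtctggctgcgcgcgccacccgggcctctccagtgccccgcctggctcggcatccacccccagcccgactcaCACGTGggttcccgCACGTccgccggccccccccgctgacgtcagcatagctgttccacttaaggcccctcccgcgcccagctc
The ADM stretch, all 250 bases of which lie in the peak, holds a single GCGTG at -101 from the start and 0 ACGTG. The BNIP3 stretch is 206 bases long, 89 of them inside its peak, and holds 4 GCGTG and 1 palindromic CACGTG that begin between -143 and -104. These positions are counted from the canonical start, which lies beyond the printed end. The GCGTG farthest from the start lies outside the peak, and the CACGTG crosses the edge of the peak. In LDHA, 5 ACGTG matches begin between -185 and -73, and they include 2 CACGTG, each of which counts on both strands. The lead of LDHA in matches rests on this double count, as PGK1 has 3 ACGTG and 0 CACGTG in its window. The LDHA start-site peak, which covers the printed LDHA stretch, differed from naive by 0.71, 0.25 and 0.23, less than that of ADM.

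Including the start sites, 585 peaks lay within 20 kb of a member, and many of the falls were at EGLN3. In erCriz0, 15 peaks (2.56%) rose and 35 (5.98%) fell, beside 7.0% and 5.94% of all 126470 peaks. In erAlec0, 44 (7.52%) rose and 66 (11.3%) fell, beside 14.1% and 9.41%. In erLor0, 21 (3.59%) rose and 59 (10.1%) fell, beside 7.45% and 8.82%. EGLN3 alone accounted for 104 of the 585 peaks and for 14, 40 and 34 of the falls. Without it, 14, 42 and 21 of 481 peaks rose (2.91%, 8.73% and 4.37%) and 21, 26 and 25 fell (4.37%, 5.41% and 5.20%). Both shares were below those of all peaks in each line. EGLN3 was left out after its falls were seen, and that choice by itself lowers the share of falls. Of the 90942 peaks paired with an expressed gene, 5.51%, 12.2% and 6.95% rose and 5.50%, 8.25% and 7.07% fell.

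**Figure D4:**
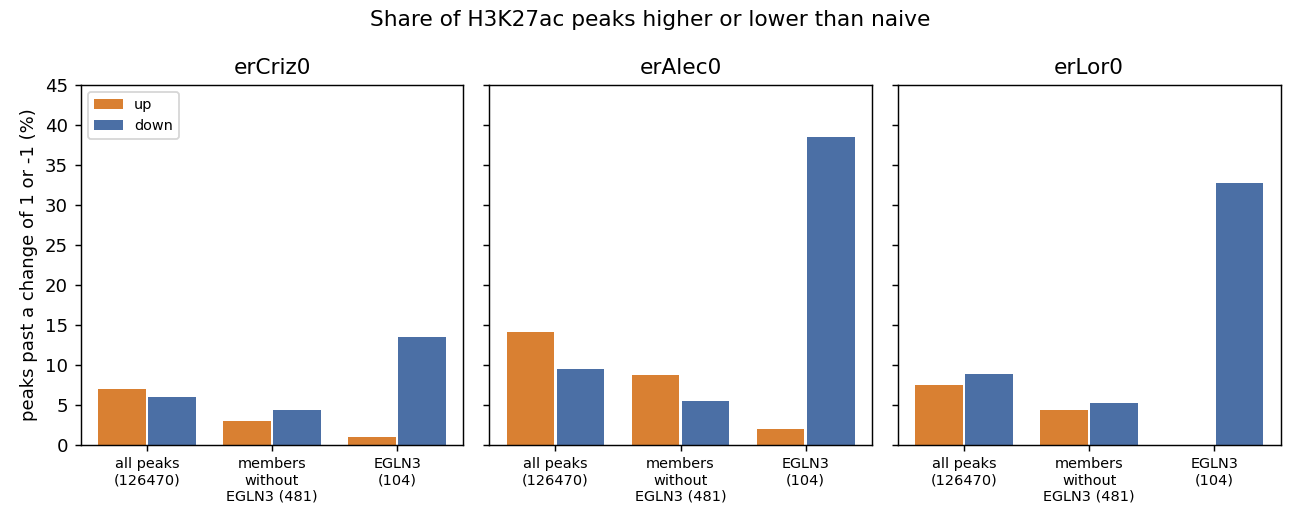
Percent of H3K27ac peaks with a change of at least 1 (up) or at most -1 (down) from naive in each resistant line, for all peaks, for the peaks paired with members other than EGLN3, and for the peaks paired with EGLN3. The EGLN3 bars for falls reach 13.5%, 38.5% and 32.7%, above the other bars of each panel.

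Many peaks across the EGLN3 gene fell in erAlec0 and erLor0, and fewer in erCriz0. The gene (ENSG00000129521.14, chr14:33924227-34462774, minus strand) is annotated with a long alternative transcript, and 96 of its 104 peaks lie 62.7 to 513 kb before the canonical start. Of these 96, 14, 40 and 33 fell in erCriz0, erAlec0 and erLor0, with median changes of -0.56, -0.92 and -0.75. Among the 25 EGLN3 peaks with a naive rlog of at least 8, the falls were 1, 9 and 7 and the medians -0.08, -0.67 and -0.69, in the same order of lines erCriz0, erAlec0, erLor0. These peaks were picked by their naive value, which also enters each change, and that choice by itself can favour falls. The 8 peaks after the canonical start had medians of 0.18, 0.12 and -0.76, with 0, 0 and 1 falls. Other peaks within 5 Mb, 555 in number, had medians of -0.19, 0.02 and -0.18. The strongest fall was at an intron peak 93.3 kb before the start (chr14:34040999-34047710), with rlog values of 11.03, 10.75, 8.87 and 9.12 in naive, erCriz0, erAlec0 and erLor0. That peak was high in naive cells and erCriz0, with changes of -2.16 and -1.91 in erAlec0 and erLor0. Against the trend, an intron peak 161 kb before the start (chr14:34110776-34114298) rose by 1.67 in erAlec0, from 8.43 to 10.10. The canonical start-site peak itself had 8.81, 9.60, 8.90 and 8.97 and did not fall. The RNA changes of EGLN3, -0.13, -0.43 and -0.39, were short of the limit.

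**Figure D5:**
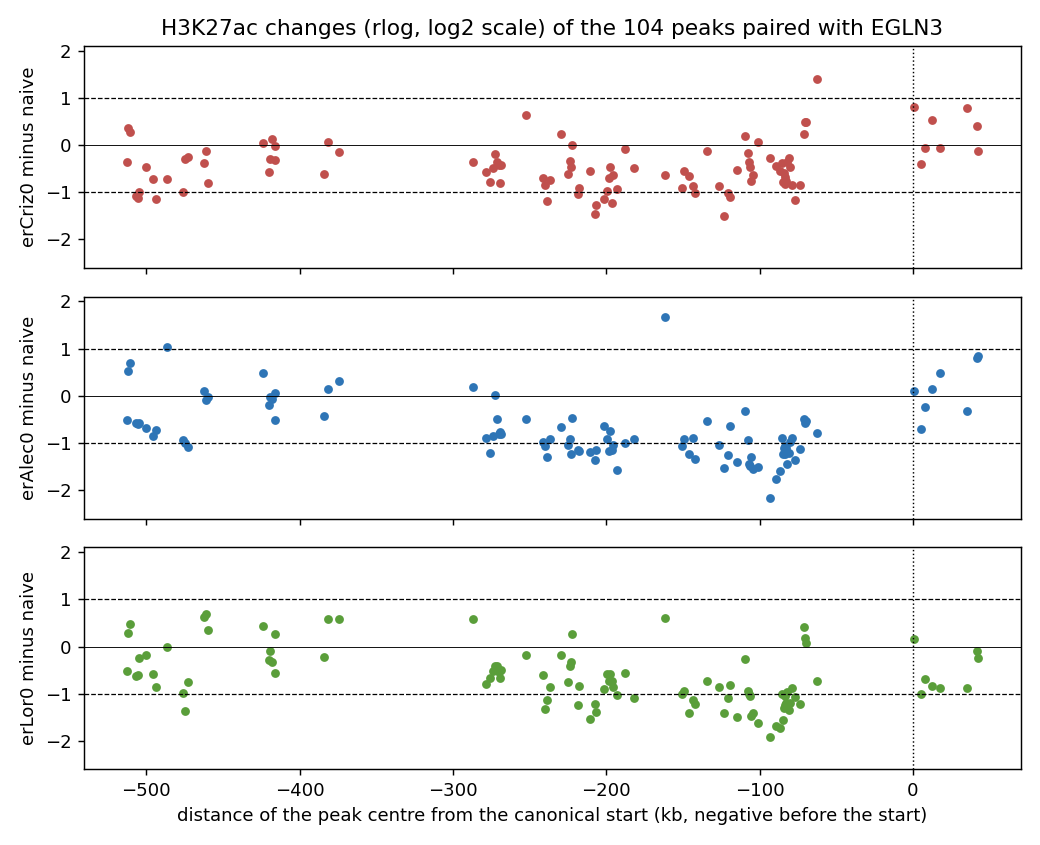
Change of each of the 104 H3K27ac peaks paired with EGLN3 (vertical axis, rlog difference from naive) against the distance of the peak centre from the canonical start in kb (horizontal axis), 1 panel per resistant line, with dashed lines at -1 and 1. Most peaks before the start lie below 0, and those at or past -1 number 14, 40 and 33.

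Single peaks at other members moved without an RNA call. A peak that covers exon sequence of HK2 (chr2:74870635-74876430, 39.4 kb after the start) had 9.16 in naive cells, 7.92 in erCriz0, 7.54 in erAlec0 and 7.53 in erLor0. Its changes were -1.24, -1.62 and -1.63, a fall in each line, while HK2 RNA was 0.91, 0.31 and 0.26 above naive. LDHA had a peak of the same behaviour at chr11:18405963-18409269, 13.1 kb after its start and shared with LDHC, with 7.78, 6.68, 5.58 and 5.84. Its changes of -1.10, -2.20 and -1.94 stand beside LDHA RNA changes of 0.77, 0.05 and 0.21. Over all 12 LDHA peaks, 6 fell in erCriz0 and 4 each in erAlec0 and erLor0, and 0 rose. At LDHB, 6 of 9 peaks fell in erCriz0 and 3 in erAlec0, although the median of peaks around it within 5 Mb was 1.00 in that line.

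Rises away from start sites were more often seen in erAlec0, as over all peaks. The largest was a PKM peak 52.4 kb after the start (chr15:72177286-72180212), also paired with GRAMD2A, with 5.49, 5.71, 7.74 and 6.86 and a rise of 2.25 in erAlec0. At P4HA1 a peak 22.7 kb before the start rose by 1.81 and 1.11 in erAlec0 and erLor0, and 5 of its 10 peaks rose in erAlec0. At CA12 a peak 7.30 kb before the start rose by 1.82 in erAlec0 with its RNA below the limit of expression. At BNIP3 a peak 16.9 kb before the start rose by 1.08 and 1.34 in erAlec0 and erLor0. An EPAS1 intron peak (chr2:46352971-46354288) had 5.51, 4.93, 6.64 and 6.69 and rose by 1.12 and 1.17 in erAlec0 and erLor0, the lines in which EPAS1 RNA was 0.85 and 0.65 above naive. VEGFA had a peak 10.3 kb before its start with 7.95, 7.05, 9.36 and 8.25, highest in erAlec0 where it rose by 1.41. In erCriz0, 0 of the 29 VEGFA peaks were above naive, with a median of -0.48 and 2 falls, 1 of them at a peak 5.37 kb before the start (-1.09), while VEGFA RNA was 0.56 above naive in that line. SLC2A3 had 3 paired peaks and none that rose in erAlec0. The strongest of them, 29.3 kb after the start and shared with SLC2A14, stood at 8.76, 7.99, 8.88 and 9.02, and a weak intron peak rose in erCriz0, from 2.59 to 4.09. Of the 15 peaks that rose in erCriz0, 13 did so in that line alone. The same share over all peaks was not computed, so this count is not a result about the members. The largest rises in erCriz0 were at CA12 (50.1 kb after the start, from 5.67 by 1.69) and PFKP (20.3 kb before it, from 4.47 by 1.53). ENO1 (30.7 kb after it, from 6.69 by 1.25), HK1 (105 kb after it, from 8.68 by 1.24) and EGLN3 (62.7 kb before it, from 8.10 by 1.41) were among the others. An EGLN1 peak 14.2 kb after the start rose by 1.24, from 3.47, and like the weak SLC2A3 peak it exceeded the log2 of 15 reads (3.91) in erCriz0 alone.

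The other peaks of largest rise or fall at these genes were as follows. In erLor0 a P4HA2 intron peak 26.1 kb before the start rose by 1.45 and an ALDOA peak 12.2 kb before the start by 1.04, with naive values of 5.53 and 6.81. In erAlec0 a BNIP3L intron peak rose by 1.38, from 6.04, and an HK2 peak 64.3 kb after the start by 1.04, from 3.27, which is below the log2 of 15 reads. Falls in erAlec0 were seen at BNIP3 (-1.39), ALDOA (-1.20), PFKP (-1.17), SLC16A3 (-1.14) and CA9 (-1.09). In erLor0 a PKM peak and a PFKFB3 peak fell, with changes of -1.58 and -1.46, and at LDHB an intron peak fell, with a change of -1.28 in both erCriz0 and erAlec0. At HIF1A, PFKL, PFKM, PFKFB4 and ALDOC no peak of largest rise or fall passed the limit, with changes between -0.56 and 0.97.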

How the data were processed

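Deposited values of RNA-seq and of ChIP-seq for H3K27ac were used for the naive line and for erCriz0, erAlec0 and erLor0, from 1 library per line and assay. The authors deposited 1 table of peak and gene pairs at most 20 kb apart, with log2 values made by the rlog function of DESeq2. For RNA, MiSeq reads were aligned to hg38 with HISAT2 and counted with HTSeq-count, and strand settings are not given in the sources used here. For ChIP-seq, reads were aligned with BWA, duplicates were removed, a mapping quality of at least 25 was required, peaks were called with MACS2, merged over 4 samples and cleared of blacklisted regions, and reads were counted with featureCounts. Versions of these tools are not given in the sources used here. Columns with the authors' correlation of each pair, its p-values and means over the libraries were not used, and 0 columns of per-sample values were left unmapped.

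Changes were rlog differences from naive, counted at 1 or -1. Depth is unknown, and no test was possible with 1 library per group. A start-site peak overlaps the canonical transcript start of GENCODE release 44, whose coordinates were identical for 34115 of 34115 genes with the same identifier version. Levels between genes used the rlog minus the log2 of exon length in kb. That length joins the exons of all annotated transcripts of a gene, so these levels are approximate.

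The members and lists were chosen with earlier results of these data known. Members of isoform pairs, HIF1A, EPAS1, their prolyl hydroxylases and members past the limit were given with all values, with their start-site peaks and, where past the limit, their peaks of largest rise or fall among those with an rlog of at least the log2 of 15. Genes outside the members were named where past the limit, apart from an item that is not reported here. ADM, VEGFA and other members named beyond this were chosen after their values were seen. Alternatives were other limits, centring, quantile normalization, filters on low values, regional medians and other choices of peak. Leaving out the peaks of EGLN3 and using only the peaks written to more than 6 decimals were added after seeing the data. Scripts were tested on simulated data. Analyses ran in Python 3.11.15 with pandas 2.3.3 and numpy 2.4.6, ranks used scipy 1.17.1, and plots used matplotlib 3.10.9.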

Additional observations from a re-analysis of the deposited data

Results flagged for a closer look

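At 2 peaks, resistant lines passed the limit in opposite directions, and the difference between lines was not tested. An HK1 peak that covers exon sequence (chr10:69383211-69387787, 66.7 kb after the start, also paired with TACR2) had rlog values of 6.85 in naive cells, 5.83 in erCriz0, and 8.14 and 8.30 in erAlec0 and erLor0, which are changes of -1.01, 1.30 and 1.46. HK1, the constitutive hexokinase, had RNA changes of -0.14, -0.07 and 0.25 in the same lines. A P4HA2 intron peak (chr5:132289786-132290469, 62.3 kb before the start, also paired with PDLIM4 and SLC22A4) had 3.69, 4.86, 2.68 and 3.48 in the same order, with changes of 1.17, -1.01 and -0.21. It is a weak peak that exceeds the log2 of 15 reads (3.91) in erCriz0 alone. No explanation was tested for either.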

How the results depend on the processing

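Of 114 values under other settings, 89 stayed within 1.5 times the reported count or within 0.1 of the reported median. All 12 medians of RNA change did, but 0.1 is near the size of these medians themselves. The erAlec0 median was 0.05 as reported and -0.01 after quantile normalization. In erCriz0 the median ran from -0.20 to -0.07 over the settings. At a limit of 1.5-fold, members with higher RNA numbered 5, 4 and 1 in erCriz0, erAlec0 and erLor0, and 2 were lower in erCriz0. The share of expressed genes past this limit was not computed, so these counts are not a result about the members. Quantile normalization gave 1 fall in erCriz0, ALDOA. The median start-site change was -0.046, 0.032 and 0.058 with the mean over all peaks of a member, and in erLor0 it was 0.59 after centring and 0.37 with the median within 2 Mb subtracted. At a limit of 1.5-fold, 69, 105 and 84 paired peaks were up and 133, 156 and 155 down. The share of all peaks past that limit was not computed either. Among the 135 peaks paired with 1 gene, 3, 6 and 5 were up and 8, 20 and 17 down, fewer because fewer peaks were counted. Without EGLN3, 21, 26 and 25 were down. Other causes were not tested. No paired analysis was possible because each group has 1 library, which also leaves no library to leave out. Depth is unknown, so differences of genes and peaks with low rlog carry an unknown counting error, and rlog understates their changes.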

Other observations

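TXNIP, which encodes a regulator of glucose uptake and redox state, had RNA values of 13.00, 12.52, 11.99 and 9.99 in naive, erCriz0, erAlec0 and erLor0. It fell in erAlec0 and erLor0, with changes of -1.01 and -3.01, while its start-site H3K27ac peak changed by -1.13 and -0.50. Of 18 tricarboxylic acid cycle genes, 0 rose and 0 fell in any line, with median changes of -0.21, -0.10 and -0.01.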
